A study of Saccharomyces cerevisiae with 12 samples.

Results

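The 9 cyclin genes that pair with the yeast cell cycle kinase, together with CDC28, the gene of that kinase, were followed across the 4 groups of the study. The members were taken by name, as CLN1 (YMR199W), CLN2 (YPL256C), CLN3 (YAL040C), CLB1 (YGR108W), CLB2 (YPR119W), CLB3 (YDL155W), CLB4 (YLR210W), CLB5 (YPR120C), CLB6 (YGR109C) and CDC28 (YBR160W). They are 10 of the 7126 genes measured, and all 10 were among the 6572 genes tested.

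In the R64 genome CDC28 lies on chrII:560078-560974, CLB3 on chrIV:176773-178056, CLB4 on chrXII:562008-563390 and CLN1 on chrXIII:662644-664284, all on the plus strand. CLN3 lies on chrI:65778-67520 and CLN2 on chrXVI:64977-66614, both on the minus strand. CLB1 (chrVII:703636-705051, plus strand) and CLB6 (chrVII:705359-706501, minus strand) are neighbours that run towards each other, as are CLB2 (chrXVI:771653-773128, plus strand) and CLB5 (chrXVI:773875-775182, minus strand). The libraries kept the strand of each read, so the genes of such a pair could be counted apart.

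RNA was sequenced from 12 cultures of haploid budding yeast, 3 in each of 4 groups: ulp2 null cells after 500 generations (500G), ulp2 null cells after 50 generations (50G), WT cells at 500G and WT cells at 50G. All 12 cultures derive from strain MHY1379, listed by the study as a MATa strain with mutant his3, leu2, lys2, trp1 and ura3 alleles in which a HIS3 marker replaces the chromosomal ULP2 gene, so the cells called WT lack chromosomal ULP2 as well. The WT cells carry ULP2, the gene of a protease that takes the small protein modifier SUMO off its targets, on the low-copy URA3 plasmid YCplac33, and the ulp2 null cells carry that plasmid without ULP2. Cells were passaged by daily dilution in rich medium, which does not select for the plasmid, and RNA was taken in mid-exponential growth. For its original lines at 500G the study lists missense mutations, in BUB1 with ULP2 present and in UBC9 and IFM1 without it. At 500G, passage and such mutations cannot be told apart here.

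The level of ULP2 RNA was at most 0.995 FPKM in the 6 ulp2 null libraries and between 161.8 and 216.6 FPKM in the 6 WT libraries. FPKM counts fragments divided by transcript length and scaled by library, so levels can be compared between genes. How the libraries were scaled is not stated in the study's methods. The study's methods state an average number of read pairs over all libraries. Read counts were not used here, so the reads behind each value and the depth of each library are not known. The FPKM of a library summed to between 1365930 and 1539386 in the 6 libraries at 500G and to between 1083961 and 1198357 in the 6 libraries at 50G, so the totals of the passages did not overlap. The part of this shift in the changes over passaging was not tested beyond the scaling alternatives given below. Genes used by a-cells summed to between 909.2 and 2118 FPKM and those used by alpha-cells to between 42.4 and 65.8 FPKM, the pattern of a MATa strain. Nothing in the labels tells whether the 3 cultures of a group came from separately passaged lines, so p-values cover only the spread between these cultures.

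Cdc28 is the cyclin-dependent kinase that drives the budding yeast cell cycle, and it is active only when a cyclin is bound to it. Cln3 acts first in G1 and helps to release the transcription factor SBF (Swi4 and Swi6) from the inhibitor Whi5. SBF and the related factor MBF (Mbp1 and Swi6) then switch on CLN1, CLN2, CLB5, CLB6 and the genes of DNA replication. Cln1 and Cln2 start budding, Clb5 and Clb6 start S phase, Clb3 and Clb4 act in spindle formation, and Clb1 and Clb2 drive mitosis. CLB1 and CLB2 are themselves switched on late in the cycle by Mcm1 with the forkhead protein Fkh2 and Ndd1. CLN3 lies on chromosome I and CLB4 on chromosome XII, the chromosomes of which the study follows an extra copy in young ulp2 null cells.

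Binding motifs of SBF, MBF and forkhead proteins, and a repeat of the CLN3 promoter, were looked up in the R64 genome. The search covered the 700 bases before each start codon, on both strands. No motif of Mcm1 was looked up. The motifs were CNCGAAA for SBF, ACGCGT for MBF, GTAAACA for forkhead proteins and AAGAAAAA, a repeat described in the CLN3 promoter in work on glucose control. They occurred in 27.3%, 6.98%, 13.6% and 35.4% of the windows of 6002 protein-coding genes, and 0 matches of different motifs overlapped in the members. The stretches below are shown because CLN1 and CLN2 are the SBF-controlled pair whose levels are set against each other here, CLB6 is the S-phase cyclin gene with MBF matches, and CLN3 is the member on chromosome I. They hold the densest group of matches (in capitals) with 10 bases on either side, written 5′ to 3′ on the strand of the gene and taken from RefSeq's R64 sequence.
CLN1, chrXIII:662182-662225, plus strand, SBF motif: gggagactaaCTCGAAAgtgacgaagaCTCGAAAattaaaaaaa
CLN2, chrXVI:67136-67230, minus strand, SBF motif: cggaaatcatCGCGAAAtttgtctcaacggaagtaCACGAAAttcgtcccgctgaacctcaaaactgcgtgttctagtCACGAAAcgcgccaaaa
CLB6, chrVII:706863-706914, minus strand, MBF motif: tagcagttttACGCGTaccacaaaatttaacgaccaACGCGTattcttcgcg
CLN3, chrI:68088-68152, minus strand, AAGAAAAA motif: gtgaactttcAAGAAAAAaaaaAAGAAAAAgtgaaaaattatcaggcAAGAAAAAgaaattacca
CLN2 held 3 SBF matches, all on the strand of the gene, and CLN1 held 2 SBF matches and 1 MBF match. CLB6 held 2 MBF matches, 1 forkhead match and 1 AAGAAAAA match. CLB1 held 1 SBF match and 1 forkhead match, and CLB4 held 2 SBF matches and 1 forkhead match. CLN3 held 5 AAGAAAAA matches and CLB2 held 1, its single match to any of these motifs. CLB3, CLB5 and CDC28 held 0 matches, which says only that these letters are not in their windows. These letters are a description of the windows, not of binding.

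**Figure D1:**
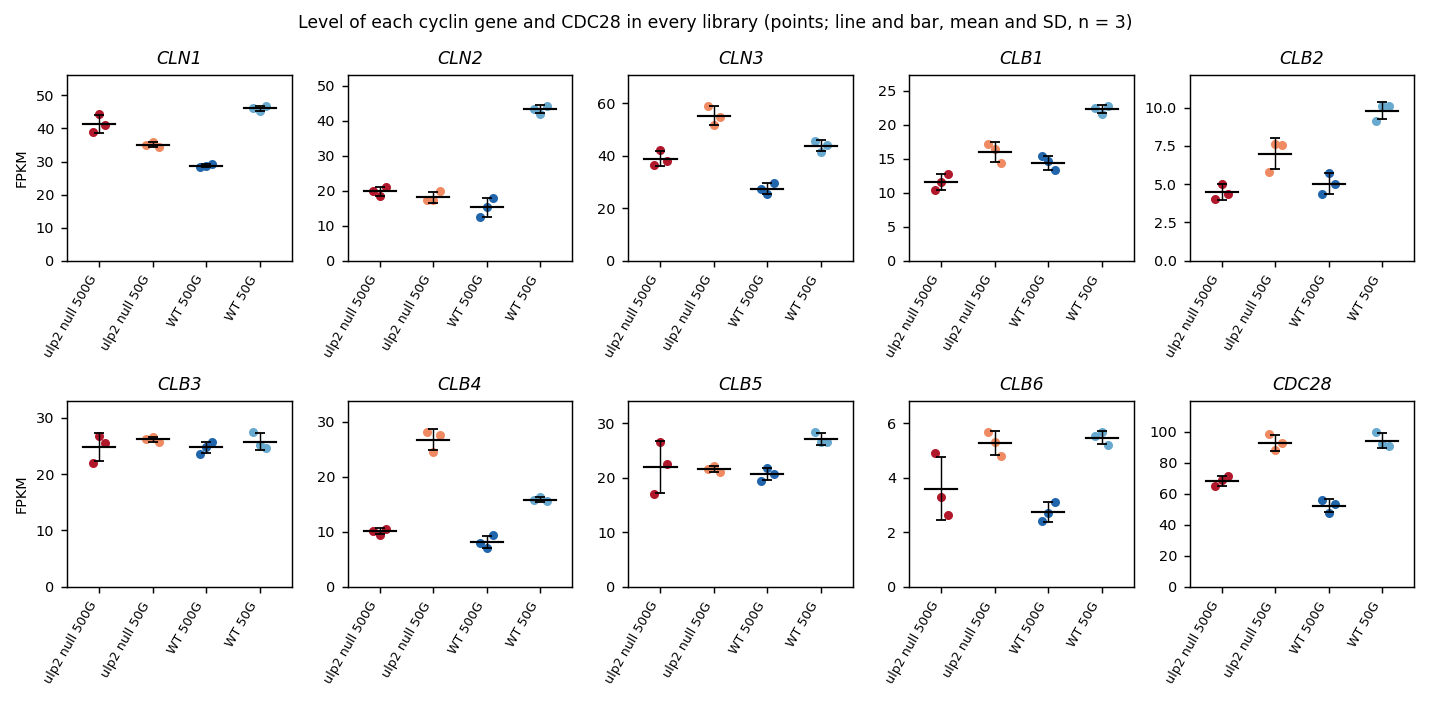
Level of each cyclin gene and of CDC28 (FPKM, linear axes from 0) in the 3 libraries of each group, with the mean (line) and SD (bar). CLN2 stood at 42.1 to 44.4 FPKM in WT 50G libraries and at no more than 20.9 FPKM in the other groups, and CLB4 was highest in ulp2 null 50G libraries.

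In WT 50G cells CDC28 was the most abundant member, at 94.1 ± 4.98 FPKM (SD, n = 3). The 3 G1 cyclin genes followed closely together, CLN1 at 46.1 ± 0.802, CLN3 at 43.8 ± 2.11 and CLN2 at 43.3 ± 1.15 FPKM, and the libraries of CLN3 overlapped those of both CLN1 and CLN2. CLB5 (27.2 ± 1.08 FPKM) and CLB3 (25.8 ± 1.51 FPKM) also overlapped. CLB1 (22.3 ± 0.612), CLB4 (15.8 ± 0.386), CLB2 (9.80 ± 0.575) and CLB6 (5.48 ± 0.250 FPKM) followed with no overlap between neighbours. The 9 cyclin genes together summed to 177 ± 12.2 FPKM in ulp2 null 500G, 211 ± 4.38 in ulp2 null 50G, 147 ± 6.43 in WT 500G and 240 ± 4.95 FPKM in WT 50G cells. Their sum was thus highest in WT 50G libraries and lowest in WT 500G libraries.

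CLN3, the upstream G1 cyclin, was high in young ulp2 null cells and low in passaged WT cells. Its level was 36.4, 42.2 and 38.0 FPKM in ulp2 null 500G, 59.1, 51.8 and 54.6 for ulp2 null 50G, 27.4, 25.4 and 29.4 for WT 500G, and 45.7, 41.5 and 44.1 FPKM in WT 50G libraries. The ulp2 null 50G libraries lay above and the WT 500G libraries below all others, and ulp2 null 500G overlapped WT 50G. The ulp2 null 50G level was 1.26 times that of WT 50G (log2 fold change 0.33 ± 0.08 SE on the log2(FPKM + 1) scale, adjusted p = 0.00898). That scale is used for every log2 fold change here, and it understates the change of low genes. Changes given as times a level are ratios of mean FPKM. Adjusted p-values are from limma, with the Benjamini-Hochberg method over all 6572 tested genes, and a gene was called changed at an adjusted p under 0.05. At 500G CLN3 was again higher in ulp2 null than in WT cells (1.42 times, log2 0.49 ± 0.08, adjusted p = 0.00421), although the p was 0.0616 when only these groups entered the fit. Between passages it fell by 0.49 ± 0.08 in ulp2 null cells (adjusted p = 0.000457) and by 0.66 ± 0.08 in WT cells (adjusted p = 0.000128). The difference between these falls, 0.16 ± 0.11, did not pass the threshold (adjusted p = 0.361).

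The genes of chromosome I were raised as a whole in ulp2 null 50G cells. The median log2 fold change against WT 50G was 0.58 over 94 tested genes of chromosome I (quartiles 0.37 and 0.77), and -0.06 over 5313 genes of the chromosomes other than I and XII. CLN3, at 0.33, stood above 21.3% of the chromosome I genes. Measured against the median of the other chromosome I genes in each library, CLN3 differed by -0.18 log2 units in ulp2 null 50G against WT 50G (exact two-sided permutation test, p = 0.3, n = 3 each, where 0.1 is the smallest p possible). At 500G the same measure was 0.63 log2 units higher in ulp2 null cells (exact p = 0.1, the smallest possible), with all 3 ulp2 null libraries above all 3 WT libraries. CCR4, another chromosome I gene and the deadenylase of the Ccr4-Not complex, was 0.46 ± 0.11 log2 units higher at 50G in ulp2 null cells, relative to WT cells (adjusted p = 0.00771).

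CLN1 and CLN2, the G1 cyclin genes that SBF controls, were both highest in WT 50G cells. CLN1 measured 39.0, 44.4 and 40.9 FPKM in ulp2 null 500G, 35.0, 35.9 and 34.5 for ulp2 null 50G, 28.2, 28.8 and 29.4 for WT 500G, and 46.2, 45.3 and 46.9 FPKM in WT 50G libraries. No library of any group overlapped another group, with WT 50G at the top and WT 500G at the bottom. CLN2 measured 19.8, 18.6 and 20.9 FPKM in ulp2 null 500G, 17.3, 17.2 and 19.9 for ulp2 null 50G, 12.5, 15.4 and 18 for WT 500G, and 43.5, 42.1 and 44.4 FPKM in WT 50G libraries. For CLN2 the WT 50G libraries stood far above the rest, and the ulp2 null 50G libraries overlapped both ulp2 null 500G and WT 500G. In ulp2 null 50G against WT 50G, CLN2 fell by 1.21 ± 0.11 log2 units to 0.419 times its level (adjusted p = 1.6e-05), and CLN1 fell by 0.38 ± 0.06 to 0.762 times its level (adjusted p = 0.000467). In bulk RNA of this kind, fewer cells in G1 and less RNA per cell cannot be told apart.

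Both genes were also lower in passaged WT cells. CLN2 in WT 500G stood at 0.353 times its WT 50G level (log2 -1.46 ± 0.11, adjusted p = 6.29e-06) and CLN1 at 0.624 times (log2 -0.66 ± 0.06, adjusted p = 1.55e-05). In ulp2 null cells CLN1 instead rose by 0.23 ± 0.06 between 50G and 500G (adjusted p = 0.00736), while CLN2 changed by 0.12 ± 0.11 (adjusted p = 0.396). The change between passages differed between the strains by 1.58 ± 0.16 for CLN2 (adjusted p = 0.000107) and by 0.89 ± 0.08 for CLN1 (adjusted p = 6.08e-05). The rise of CLN1 depended on scaling: with all genes other than those of ribosomal proteins set to an equal sum per library, which moved the median of all tested genes to -0.41 in this comparison, CLN1 changed by -0.14 (adjusted p = 0.155). The balance of the pair moved too. The ratio of CLN1 to CLN2 was 1.95 to 2.39 in ulp2 null 500G, 1.73 to 2.08 in ulp2 null 50G, 1.63 to 2.26 in WT 500G and 1.06 to 1.08 in WT 50G libraries, so WT 50G alone had near equal levels.

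The S-phase cyclin genes changed less. CLB5 measured 17.0, 26.5 and 22.4 FPKM in ulp2 null 500G, 21.6, 22.2 and 21.1 for ulp2 null 50G, 19.5, 21.7 and 20.8 for WT 500G, and 28.4, 26.5 and 26.6 FPKM in WT 50G libraries. Replicate 1 of ulp2 null 500G was the lowest and replicate 2 of that group lay among the WT 50G libraries. CLB5 fell by 0.38 ± 0.13 in WT 500G against WT 50G (adjusted p = 0.0333), but in each of the 6 fits that left out a WT library the adjusted p was between 0.0544 and 0.0945. Without replicate 2 of ulp2 null 500G, its difference from WT 50G was -0.45 (adjusted p = 0.0125), against -0.31 ± 0.13 (adjusted p = 0.0779) with all libraries. Without replicate 1 of that group, the difference in its change between the strains was 0.55 (adjusted p = 0.00714), against 0.38 ± 0.18 (adjusted p = 0.157) with all libraries. CLB6, the least abundant member together with CLB2, measured 4.90, 3.29 and 2.63 FPKM in ulp2 null 500G, 5.69, 5.30 and 4.82 for ulp2 null 50G, 2.40, 2.71 and 3.12 for WT 500G, and 5.55, 5.68 and 5.20 FPKM in WT 50G libraries. The 50G libraries of both strains overlapped and nearly all lay above the 500G libraries, with replicate 1 of ulp2 null 500G within the range of ulp2 null 50G. CLB6 fell by 0.79 ± 0.19 in WT 500G against WT 50G (adjusted p = 0.00741), and for ulp2 null 500G against ulp2 null 50G the difference of -0.47 ± 0.19 (adjusted p = 0.0578) passed the threshold without replicate 1 of ulp2 null 500G (-0.67, adjusted p = 0.0064). Against WT 50G the difference of -0.52 ± 0.19 in ulp2 null 500G (adjusted p = 0.0575) passed without that library too (-0.71, adjusted p = 0.00852).

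CLB1 and CLB2, the genes of the main mitotic cyclins, were lower in every other group than in WT 50G cells. CLB1 measured 10.5, 11.6 and 12.8 FPKM in ulp2 null 500G, 17.2, 16.4 and 14.4 for ulp2 null 50G, 15.4, 14.6 and 13.3 for WT 500G, and 22.5, 21.7 and 22.8 FPKM in WT 50G libraries. CLB2 measured 4.0, 5.03 and 4.36 FPKM in ulp2 null 500G, 5.80, 7.61 and 7.54 for ulp2 null 50G, 4.36, 5.75 and 4.98 for WT 500G, and 9.14, 10.1 and 10.1 FPKM in WT 50G libraries. In both genes the WT 50G libraries lay above all others, and the lowest mean was that of ulp2 null 500G. In ulp2 null 500G against WT 50G, CLB1 was 0.89 ± 0.09 and CLB2 0.99 ± 0.14 log2 units lower (adjusted p = 6.72e-05 and 0.000524). In WT 500G against WT 50G the falls were 0.60 ± 0.09 for CLB1 (adjusted p = 0.000639) and 0.85 ± 0.14 for CLB2 (adjusted p = 0.000984). In ulp2 null 50G against WT 50G they were 0.46 ± 0.09 (adjusted p = 0.0031) and 0.44 ± 0.14 (adjusted p = 0.0329), and the call of CLB2 was lost without replicate 1 of ulp2 null 50G or replicates 2 or 3 of WT 50G (adjusted p = 0.0986, 0.0897 and 0.0838). It was also lost under the equal-sum scaling (-0.34, adjusted p = 0.131), which moved the median of all tested genes to 0.097. From 50G to 500G in ulp2 null cells CLB1 fell by 0.43 ± 0.09 (adjusted p = 0.00294) and CLB2 by 0.54 ± 0.14 (adjusted p = 0.0085).

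CLB3 was the member whose level moved least. It measured 22.0, 26.8 and 25.5 FPKM in ulp2 null 500G, 26.3, 26.6 and 25.6 for ulp2 null 50G, 23.6, 24.8 and 25.7 for WT 500G, and 27.5, 25.1 and 24.7 FPKM in WT 50G libraries. All groups overlapped. Its log2 differences lay between -0.08 and 0.02, each with an SE of 0.08, in the 5 comparisons of groups, and none passed the threshold. Under the equal-sum scaling CLB3 was lower in ulp2 null 500G than in ulp2 null 50G (-0.44, adjusted p = 0.00302) and in WT 500G than in WT 50G (-0.42, adjusted p = 0.00576), where that scaling moved the median of all tested genes to -0.41 and -0.34.

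CLB4, the partner of CLB3 in role, moved most of all between the ulp2 null groups. It measured 10.2, 9.50 and 10.6 FPKM in ulp2 null 500G, 28.1, 24.5 and 27.6 for ulp2 null 50G, 7.93, 7.11 and 9.35 for WT 500G, and 15.7, 16.3 and 15.6 FPKM in WT 50G libraries. No 2 groups overlapped, with ulp2 null 50G at the top and WT 500G at the bottom. The ulp2 null 50G level was 1.69 times that of WT 50G (log2 0.72 ± 0.10, adjusted p = 0.000233). By 500G in ulp2 null cells it stood at 0.377 times the ulp2 null 50G level (log2 -1.32 ± 0.10, adjusted p = 1.83e-06), and in WT 500G at 0.513 times the WT 50G level (log2 -0.89 ± 0.10, adjusted p = 6.95e-05). The ratio of CLB3 to CLB4 was 2.17 to 2.82 in ulp2 null 500G, 0.929 to 1.09 in ulp2 null 50G, 2.75 to 3.49 in WT 500G and 1.54 to 1.75 in WT 50G libraries.

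The median log2 fold change of 510 tested genes of chromosome XII in ulp2 null 50G against WT 50G was 0.68 (quartiles 0.49 and 0.94), and CLB4, at 0.72, stood above 53.1% of them. Measured against the median of the other chromosome XII genes, CLB4 differed by -0.03 log2 units in ulp2 null 50G against WT 50G (exact two-sided permutation p = 0.7, n = 3 each), and by 0.28 in ulp2 null 500G against WT 500G (exact p = 0.2). Without replicate 2 of ulp2 null 50G the early difference was 0.022. In ulp2 null 500G against ulp2 null 50G the median of chromosome XII was -0.73 and CLB4 stood above 13.5% of its genes. In WT 500G against WT 50G the median was -0.03, and CLB4 stood above 4.71% of the genes.

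**Figure D2:**
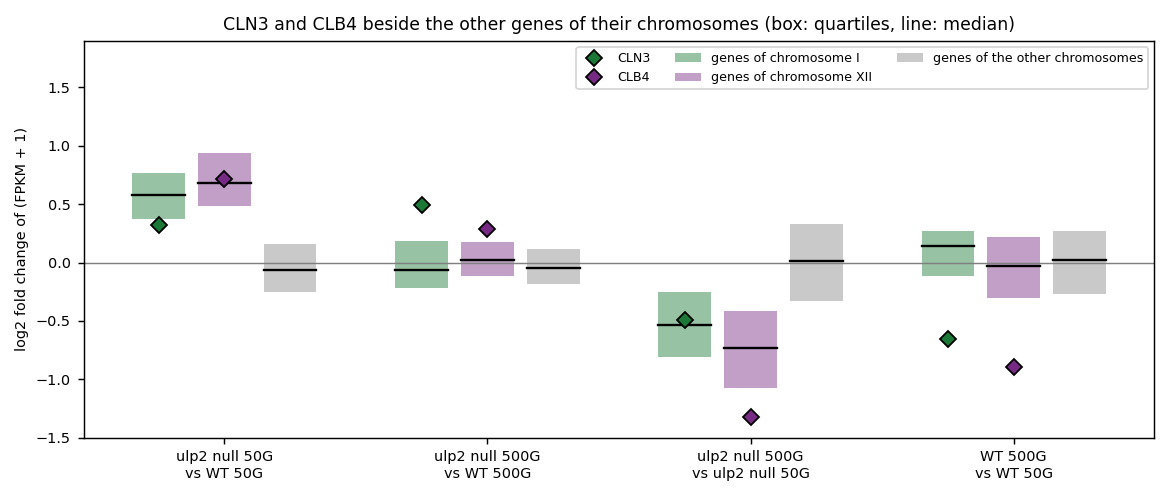
Log2 fold changes of CLN3 and CLB4 (diamonds) beside the tested genes of chromosome I (94 genes), chromosome XII (510 genes) and the other chromosomes (5313 genes) in 4 comparisons; boxes span the quartiles and lines mark the medians. In ulp2 null 50G against WT 50G, CLB4 (0.72) lay near the chromosome XII median (0.68) and CLN3 (0.33) below the chromosome I median (0.58), and in WT 500G against WT 50G both lay below the quartiles of their chromosomes.

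CDC28, the kinase gene, was lower in both late groups than in the 50G groups, which overlapped (-0.02 ± 0.08 in ulp2 null 50G against WT 50G, adjusted p = 0.873). It measured 64.7, 68.8 and 71.2 FPKM in ulp2 null 500G, 98.1, 87.9 and 92.5 for ulp2 null 50G, 55.8, 47.6 and 53.6 for WT 500G, and 99.8, 92.1 and 90.5 FPKM in WT 50G libraries. Each late group lay apart from the 50G groups and from the other late group. At 500G, CDC28 was 0.38 ± 0.08 log2 units higher in ulp2 null than in WT cells (adjusted p = 0.0121; 0.0841 when only these groups entered the fit). Between passages it fell by 0.44 ± 0.08 in ulp2 null cells (adjusted p = 0.000701) and by 0.84 ± 0.08 in WT cells (adjusted p = 1.88e-05). These falls differed by 0.40 ± 0.11 (adjusted p = 0.0228), and this p was 0.0538, 0.0575 and 0.0532 without replicate 3 of ulp2 null 500G, replicate 2 of ulp2 null 50G or replicate 1 of WT 50G.

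**Figure D3:**
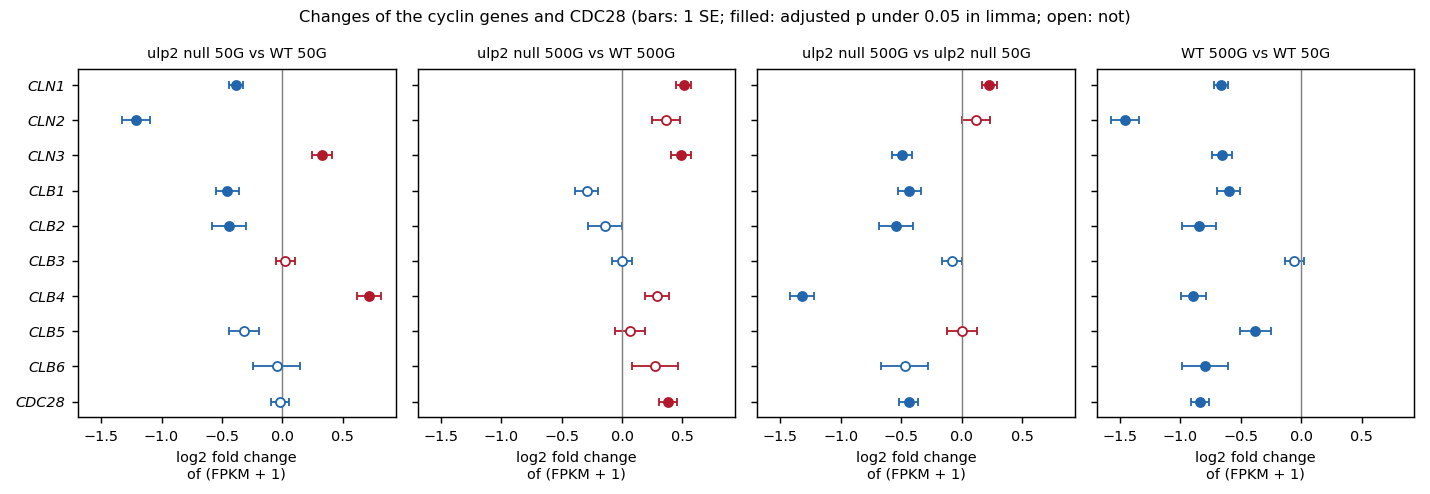
Log2 fold changes of (FPKM + 1) with 1 SE for the 10 members in 4 comparisons; filled points had an adjusted p under 0.05 in limma and open points did not. In WT 500G against WT 50G all points but CLB3 are filled and lie below 0, and in ulp2 null 500G against WT 500G the filled points are CLN1, CLN3 and CDC28, all above 0.

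At 50G the members differed between the strains in both directions. In ulp2 null 50G against WT 50G, 2 of the 10 members were higher, the pair on chromosomes I and XII (CLN3 and CLB4), and 4 were lower (CLN1, CLN2, CLB1 and CLB2). Over all tested genes 18.7% were higher and 18.1% lower. The median change was -0.18 for the members and -0.02 for all tested genes.

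Nearly the whole group was lower in passaged WT cells. In WT 500G against WT 50G, 0 members were higher and 9 were lower, where 21.4% of all tested genes were higher and 19.2% lower. At an unadjusted p under 0.05 in limma the counts were also 0 and 9, and all 10 log2 changes were below 0. The median change was -0.73 for the members and 0.01 for all tested genes. These comparisons share the WT 50G libraries.

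The kinase, CLN3 and the mitotic cyclin genes other than CLB3 were lower in passaged ulp2 null cells. In ulp2 null 500G against ulp2 null 50G, 5 members were lower (CLN3, CLB1, CLB2, CLB4 and CDC28) and 1 was higher (CLN1), where 29.7% of all tested genes were lower and 24.5% higher. Against the WT 50G cells, the same ulp2 null 500G libraries had 0 members higher and 5 lower (CLN2, CLB1, CLB2, CLB4 and CDC28), where 16.1% of all tested genes were higher and 17.8% lower, and again all 10 log2 changes were below 0 (0 higher and 8 lower at an unadjusted p under 0.05 in limma). In that comparison CLB4 fell by 0.61 ± 0.10 (adjusted p = 0.00108), CDC28 by 0.46 ± 0.08 (adjusted p = 0.0012) and CLN2 by 1.09 ± 0.11 (adjusted p = 5.81e-05). CLN1 differed by -0.15 ± 0.06 (adjusted p = 0.0676). With the replicate number as a block, CLN1 passed the threshold (adjusted p = 0.0459) and 6 members were lower.

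Between the strains at 500G fewer genes differed. In ulp2 null 500G against WT 500G, 3 members were higher (CLN1, CLN3 and CDC28) and 0 were lower, where 4.9% of all tested genes were higher and 6.06% lower. CLN1 was 0.51 ± 0.06 log2 units higher (adjusted p = 0.000547), or 1.44 times. CLN2 (0.37 ± 0.11, adjusted p = 0.0669) and CLB4 (0.29 ± 0.10, adjusted p = 0.096) were above WT in all 3 libraries without passing. Without replicate 3 of WT 500G, in which both were highest for that group, 5 members passed, with CLN2 at 0.48 (adjusted p = 0.02) and CLB4 at 0.38 (adjusted p = 0.0347). CLB1 had all ulp2 null libraries below all WT libraries, at -0.29 ± 0.09 (adjusted p = 0.0755). At an unadjusted p under 0.05 in limma 5 members were higher and 1 was lower.

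The change over passaging differed between ulp2 null and WT cells in 4 members. It was more positive in ulp2 null cells for CLN1, CLN2 and CDC28, and more negative for CLB4 (-0.43 ± 0.14, adjusted p = 0.0496), where 9.74% of all tested genes were more positive and 13.0% more negative. The call of CLB4 lay at the threshold and was lost in 10 of the 12 fits that left out a library (adjusted p between 0.0221 and 0.108 over all alternatives).

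Among the regulators of the G1 cyclins, the changes of SBF and MBF subunits that passed between groups were all upward. SWI6, shared by both factors, was higher in ulp2 null 50G (0.56 ± 0.12, adjusted p = 0.00368), WT 500G (0.55 ± 0.12, adjusted p = 0.00426) and ulp2 null 500G (0.63 ± 0.12, adjusted p = 0.00239) than in WT 50G cells, averaging 58.3, 55.2 and 54.9 FPKM in ulp2 null 500G, ulp2 null 50G and WT 500G and 37.1 FPKM in WT 50G cells. SWI6 lies on chromosome XII. SWI4, the DNA-binding part of SBF, was higher in ulp2 null 500G against ulp2 null 50G (0.42 ± 0.11, adjusted p = 0.00769) and against WT 50G (0.34 ± 0.11, adjusted p = 0.0338). MBP1, the DNA-binding part of MBF, was higher in WT 500G than in WT 50G cells (0.29 ± 0.10, adjusted p = 0.0314). WHI5, the inhibitor of SBF, passed in no comparison and differed by at most 0.21 ± 0.19 in size. NRM1, a corepressor of MBF, fell by 1.57 ± 0.09 in WT 500G (adjusted p = 4.15e-07) and by 1.03 ± 0.09 in ulp2 null 500G (adjusted p = 1.43e-05) against WT 50G. Of the 11 regulators, 1 was higher and 1 lower in ulp2 null 50G, and 3 were higher and 3 lower in WT 500G, against WT 50G. Over all tested genes 18.7% were higher and 18.1% lower in ulp2 null 50G, and 21.4% and 19.2% in WT 500G. The shares given for each comparison of groups also apply to the list counts that follow.

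The targets of SBF and MBF, 20 genes mostly of DNA replication, were largely lower in WT 500G than in WT 50G cells. In WT 500G against WT 50G, 12 of the 20 were lower and 0 higher (14 and 0 at an unadjusted p under 0.05 in limma; median -0.40, all tested genes 0.01), among them RNR1, the large subunit of ribonucleotide reductase (-1.0 ± 0.07, adjusted p = 2.27e-06), and the mannosyltransferase gene MNN1 (-0.99 ± 0.07, adjusted p = 3.18e-06). In ulp2 null 50G against WT 50G, 8 were lower and 2 higher (median -0.24), with CDC21, the thymidylate synthase gene, at -0.64 ± 0.09 (adjusted p = 0.000237). The higher genes were CDC45, on chromosome XII, and RFA1, on chromosome I. In ulp2 null 500G against WT 500G, 10 were higher and 0 lower (15 and 0 at an unadjusted p under 0.05; median 0.34), led by CDC45, a factor of the replicative helicase (0.86 ± 0.14, adjusted p = 0.00341), SVS1 (0.75 ± 0.14, adjusted p = 0.00856) and TOS4 (0.68 ± 0.12, adjusted p = 0.00602). The change over passaging was more positive in ulp2 null cells for 12 of the 20, and for CDC21 by 1.22 ± 0.13 (adjusted p = 0.000123). Of the 8 core histone genes, 3 were lower in WT 500G than in WT 50G and 3 were higher in ulp2 null 500G against WT 500G, in both cases HTA2, HTB2 and HHF2.

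The late genes that share their regulators with CLB1 and CLB2 fell widely. Of 13 targets of Mcm1, Fkh2 and Ndd1, 12 were lower in WT 500G (median -0.71), 11 in ulp2 null 500G (median -0.61) and 6 in ulp2 null 50G (median -0.35) against WT 50G, and 0 were higher in either 500G group, also at an unadjusted p under 0.05 in limma. CDC20, the activator of the ubiquitin ligase APC/C that ends mitosis and marks mitotic cyclins for destruction, averaged 16.7, 20.7 and 18.5 FPKM in ulp2 null 500G, ulp2 null 50G and WT 500G and 33.6 FPKM in WT 50G cells. It fell against WT 50G by 0.97 ± 0.07, 0.67 ± 0.07 and 0.83 ± 0.07 in those groups (adjusted p = 5.5e-06, 4.14e-05 and 1.42e-05). KIN3, a kinase gene of chromosome I, fell by 1.25 ± 0.11 in WT 500G (adjusted p = 1.59e-05) and 1.15 ± 0.11 in ulp2 null 500G (adjusted p = 3.85e-05). SPO12, a regulator of mitotic exit, fell by 1.14 ± 0.19 (adjusted p = 0.000872) and CHS2, the septum chitin synthase, by 0.89 ± 0.09 (adjusted p = 3.14e-05) in ulp2 null 50G. CDH1, the other activator of the APC/C, passed in no comparison and averaged 43.5, 40.9, 48.0 and 41.6 FPKM in ulp2 null 500G, ulp2 null 50G, WT 500G and WT 50G cells.

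Genes expressed as cells leave mitosis and enter G1 had more members lower than higher in both late groups against WT 50G. Of 17, 10 were lower and 0 higher in ulp2 null 500G against WT 50G (11 and 0 at an unadjusted p under 0.05 in limma; median -0.27), and 8 were lower and 3 higher in WT 500G against WT 50G (median -0.17). In ulp2 null 50G against WT 50G, 7 were higher and 2 lower (median 0.24). Between the passages of ulp2 null cells, 13 were lower and 1 higher at 500G (median -0.48). CTS1, the chitinase that separates daughter cells, averaged 279 FPKM in ulp2 null 500G and 736 FPKM in ulp2 null 50G cells (-1.39 ± 0.07, adjusted p = 1.12e-07). CDC6, which loads the replicative helicase, was 1.13 ± 0.18 lower in ulp2 null 500G than in ulp2 null 50G cells (adjusted p = 0.000416). Of the 7 that were higher at 50G, 3 lie on chromosome XII: CTS1, MCM5 and SIC1.

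**Figure D4:**
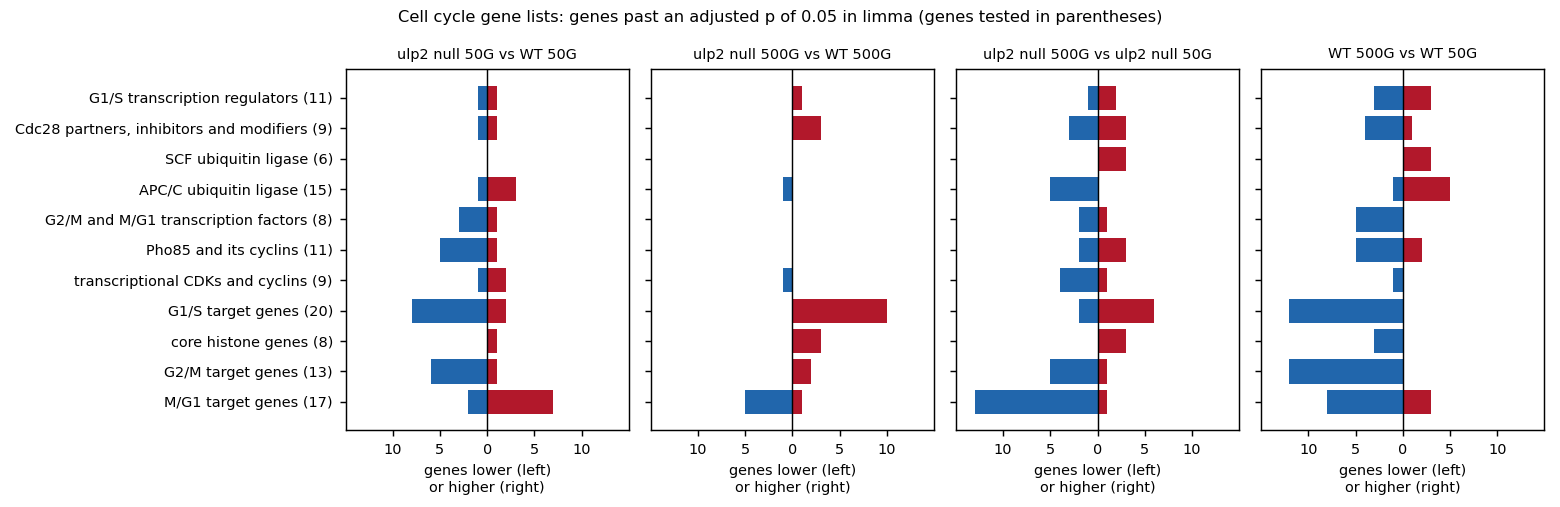
Number of genes in each cell cycle list that passed an adjusted p of 0.05 in limma, lower to the left in blue and higher to the right in red, in 4 comparisons; the genes tested in each list are in parentheses. In WT 500G against WT 50G, 12 of 13 G2/M targets and 12 of 20 G1/S targets were lower, and in ulp2 null 500G against WT 500G 10 G1/S targets were higher.

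Of 9 partners, inhibitors and modifiers of Cdc28, 3 were higher and 0 lower in ulp2 null 500G against WT 500G (4 and 1 at an unadjusted p under 0.05 in limma). Over all tested genes 4.9% were higher and 6.06% lower there. The 3 were HSL1 (0.58 ± 0.09, adjusted p = 0.00349), SWE1 and FAR1 (0.31 ± 0.09, adjusted p = 0.0459). In WT 500G against WT 50G, 1 was higher and 4 were lower. SIC1, the inhibitor of the Clb kinases and a chromosome XII gene, averaged 237 FPKM in ulp2 null 50G, against 159 FPKM in WT 50G cells (0.58 ± 0.12, adjusted p = 0.00356), and its change over passaging was 0.67 ± 0.17 lower in ulp2 null cells (adjusted p = 0.0172). FAR1, the inhibitor of Cln kinases, fell by 0.97 ± 0.09 in WT 500G (adjusted p = 1.7e-05) and by 0.66 ± 0.09 in ulp2 null 500G (adjusted p = 0.000301) against WT 50G, with no difference that passed in ulp2 null 50G (0.00 ± 0.09, adjusted p = 0.987). SWE1, the kinase that restrains Clb-Cdc28, was 0.53 ± 0.12 lower in WT 500G than in WT 50G (adjusted p = 0.00577) and, at 500G, 0.44 ± 0.12 higher in ulp2 null than in WT cells (adjusted p = 0.0414). MIH1, the phosphatase that opposes Swe1, rose to 78.1 FPKM in ulp2 null 500G, against 50.5 FPKM in WT 50G cells (0.62 ± 0.09, adjusted p = 0.000459). CKS1, the small subunit bound to Cdc28, was higher in ulp2 null 500G than in ulp2 null 50G cells (0.41 ± 0.11, adjusted p = 0.00904). CAK1, the kinase that activates Cdc28, passed in no comparison, its differences lying between -0.15 and 0.06 with an SE of 0.06.

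Other cyclins moved apart from the Cdc28 group in part. PCL1 and PCL2, G1 cyclins of the kinase Pho85, fell by 1.09 ± 0.08 and 0.77 ± 0.06 in WT 500G against WT 50G (adjusted p = 5.51e-06 and 4.3e-06). PCL5, a Pho85 cyclin of amino acid control, rose by 0.82 ± 0.09 in ulp2 null 50G (adjusted p = 5.8e-05) and fell by 0.76 ± 0.09 in WT 500G (adjusted p = 0.000119) against WT 50G. Of the 9 genes of transcriptional kinases and their cyclins, 0 were higher (1 at an unadjusted p under 0.05 in limma) and 1, BUR2, was lower in WT 500G against WT 50G. The SCF ubiquitin ligase, which marks Cln1 and Cln2 for destruction, had 0 of 6 genes changed in ulp2 null 50G (1 at an unadjusted p under 0.05 in limma) and 3 higher in WT 500G against WT 50G, among them SKP1 (0.88 ± 0.15, adjusted p = 0.00124). Of 15 APC/C genes, 5 were higher in WT 500G than in WT 50G, and CDC20 was the 1 that was lower. Over all tested genes 21.4% were higher and 19.2% lower in WT 500G against WT 50G.

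Markers of mating type and state were read beside these results. The a-cell genes summed to 1442 to 1841 FPKM in ulp2 null 500G, 1946 to 2103 in ulp2 null 50G, 909.2 to 1179 in WT 500G and 1650 to 2118 FPKM in WT 50G libraries, so WT 500G was lowest, and 4 of 6 were lower there than in WT 50G. The alpha-cell genes had sums of 43.1 to 58.1, 59.6 to 65.8, 42.4 to 48.1 and 52.0 to 56.5 FPKM in the same groups, and 1 of 4 was lower in WT 500G. The 5 haploid-specific genes were lower than in WT 50G in 3 cases in ulp2 null 50G and in 1 case in WT 500G. The 10 meiotic genes summed to 283.5 to 352.5 FPKM in ulp2 null 500G, 242.3 to 268.9 in ulp2 null 50G, 324.2 to 376.7 in WT 500G and 186.5 to 206.2 FPKM in WT 50G libraries. In WT 500G against WT 50G, 3 were higher and 3 lower. Much of each sum came from a single gene, which reached 259.8 FPKM in WT 500G and 81.6 FPKM in WT 50G libraries. No marker was at 0 in all libraries of a group. The part of these shifts in the cyclin results was not tested.

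Over the 12 libraries the members fell into profiles that overlapped in part, as Pearson correlations of log2(FPKM + 1) describe. CLN3 ran closest to CLB4 (r = 0.923) and CDC28 (r = 0.92), CLB1 to CLB2 (r = 0.875), and CLN1 to CLN2 (r = 0.812). The genes outside the group most like each member were SVS1 for CLN1 (r = 0.948), KIP2 for CLN2 (r = 0.973), TRZ1 for CLN3 (r = 0.981), YHB1 for CLB1 (r = 0.959), NAM9 for CLB2 (r = 0.956), UGA1 for CLB5 (r = 0.937), KRE6 for CLB6 (r = 0.949) and COX10 for CDC28 (r = 0.971). For CLB4 they were YNL234W and UBC4 (r = 0.989 each). CLB3, with little variation, reached only r = 0.853, with YGR226C. The 12 points share 4 group means and their libraries, so these values describe likeness of profile only.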

How the data were processed

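RNA from 12 cultures was sequenced as paired-end, strand-specific libraries made, by the methods, from total RNA, while the labels name polyA RNA. The authors mapped reads with TopHat2 2.1.1 to Ensembl R64, kept those with a single location (so reads shared by paralogs such as CLN1 and CLN2 drop out), and ran Cufflinks 2.2.1. They deposited FPKM values per gene and library, without counts; the methods give an average read number over all libraries, and the depth of each library and the counting error of each value are not known. FPKM are relative to the scaling of each library, which the methods do not name, so a shift of abundant genes could move others.

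The members and gene lists were chosen with earlier results of these data known. The tests ran on log2(FPKM + 1), using limma 3.58.1 in R 4.3.3 (4 groups in 1 fit, empirical Bayes with a trend) over 6572 genes (mean FPKM at or above 1), in place of Cuffdiff's test, which needs alignments. P-values were adjusted by Benjamini-Hochberg, threshold 0.05. Single values used an exact permutation test (scipy 1.17.1). The code was tested on simulated data. Of 7126 genes, 6048 were matched to the R64 annotation by systematic name and 31 by symbol. Named were the members, 12 regulators, ULP2, CCR4, and up to 3 genes per list and comparison of largest change that passed the threshold and moved alike in all 9 sample pairs; other genes were named for a listed reason after their values were seen. One gene of the lists is not reported here by name.

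Replicate numbers are shared between groups. Same-numbered libraries of ulp2 null 500G and WT 50G deviated together (r = 0.141, 0.115 and 0.135), so the replicate block is given for that comparison. No other pair of groups had all correlations over 0.1, though those of ulp2 null 50G and WT 500G were 0.0971, 0.181 and 0.203. Alternatives changed the pseudocount (0.1), the filter (none, or a mean FPKM at or above 10), the samples in the fit (only the groups compared, or each library left out), the scaling (median of ratios, or equal sums over genes other than those of ribosomal proteins), the variance trend (none), the threshold (0.01) or added the block.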

Additional observations from a re-analysis of the deposited data

Results flagged for a closer look

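The change from 50G to 500G differed between ulp2 null and WT cells, by the test of that difference in limma, for CLN1 (0.89), CLN2 (1.58), CLB4 (-0.43) and CDC28 (0.40), in log2 units as ulp2 null minus WT. For CLN1 the groups changed in opposite directions, and for CLB4 and CDC28 both fell, CLB4 further in ulp2 null and CDC28 further in WT cells. CLN2 fell in WT cells, and its change in ulp2 null cells did not pass the threshold.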

How the results depend on the processing

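Over 1238 combinations of a member's result and an alternative, 1172 kept their side of the threshold and, where a change had been called, its direction. Another 35 lost and 30 gained a call, and 1 called change reversed (CLN1 in ulp2 null 500G against ulp2 null 50G, -0.14 with equal sums). Turns of sign in results without a call were not counted, as for CLN2 in those groups (-0.24 to 0.19 over the alternatives). The number of members changed in ulp2 null 500G against WT 500G was 3, and 1 with only the groups compared, 5 with the replicate block, and 3 to 5 leaving out single libraries. Same-numbered libraries of these groups had correlations of 0.157, -0.0664 and 0.0663, and whether the number marks a shared batch is not known. The block changed 3 calls of members over all comparisons. In ulp2 null 500G against WT 50G it was 5, and 10 with equal sums, where the median of all tested genes moved to -0.27. For the difference in change between strains it was 4, and 2 with equal sums, 2 at an adjusted p under 0.01 and 2 to 4 leaving out single libraries. Read against all tested genes instead of its chromosome, CLN3 was 0.31 and CLB4 0.70 higher in ulp2 null 50G, relative to WT 50G, a turn of sign that the chromosome medians set. Without replicate 2 of ulp2 null 50G, CLB4 relative to chromosome XII was 0.022, and leaving out single libraries gave -0.063 to 0.022. FPKM alone do not give the reads behind a value, and low genes such as CLB2 and CLB6 are the least certain.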
